A study of Homo sapiens with 38 samples.

Results

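The RNAs described here are the small nucleolar RNAs (snoRNAs) and small Cajal body RNAs (scaRNAs) read by an Affymetrix whole-transcript array in A549, a human lung adenocarcinoma cell line used as a model of alveolar epithelium. The members are all probe sets of the deposited table whose only gene symbol begins with SNORA, SNORD or SCARNA. There were 117 of them among 14488 probe sets, made up of 40 SNORA, 64 SNORD and 13 SCARNA probe sets. They stand for 115 gene symbols, since SCARNA9 and SCARNA17 each have 2 probe sets. All 117 were tested, with no filter on low values. A further 38 probe sets carry several symbols of which 1 is a snoRNA or scaRNA, and these are not members.

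SnoRNAs are short nuclear RNAs that guide the chemical modification of other RNAs by base pairing. Box C/D snoRNAs (SNORD) guide ribose methylation, and box H/ACA snoRNAs (SNORA) guide the conversion of uridine to pseudouridine, mostly on ribosomal RNA. ScaRNAs carry the same boxes, reside in Cajal bodies and guide modification of the spliceosomal RNAs. In human cells most of them are cut out of introns, so that 1 host transcript can give a spliced RNA and a snoRNA.

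The study reduced ORMDL3, a protein in the membrane of the endoplasmic reticulum that holds back the synthesis of sphingolipids, and then added interleukin 1 beta (IL1B). Cells of the knockdown arm received a pool of ORMDL3 siRNAs for 48 h and were then kept without serum for 24 h before 1 ng/ml IL1B was added. RNA was taken at 0, 2, 4, 8 and 10 h in a control arm and in the knockdown arm, with 4 arrays a group except 3 in the control arm at 8 h and 3 in the knockdown arm at 0 h. The labels do not say what the control cells received in place of the siRNA pool. The 0 h arrays are the only ones without IL1B, so an effect of IL1B and of the hours that passed cannot be told apart. The labels name no separate cultures, so a p-value here stands against the spread among these arrays alone, and that spread may be technical.

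On the log2 scale of the deposited values, array medians lay between 8.02 and 8.19. ORMDL3 lay between 6.78 and 7.77 in the control arm and between 5.00 and 5.57 in the knockdown arm, and the arms did not overlap at any hour (two-sided exact permutation test at each hour, p = 0.029, the smallest it allows for 4 against 3 or 4 arrays). All 9 measured lung epithelial markers of the 11 listed lay above the lower quartile of all values. CDH1, KRT19, KRT18, KRT8, KRT7 and EPCAM were lower with IL1B in both arms, MUC1 and LAMP3 were higher in both, and ABCA3 passed the test in neither. Of 6 leukocyte and 6 fibroblast and endothelial markers 2 each were measured, and ITGAM and CDH5 among them were higher with IL1B in both arms. The part of these markers in the results on the members was not tested. No 2 arrays held identical values.

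The sequences of most snoRNAs are not in the references used here. The stretch of SCARNA16 that RefSeq also lists inside the microRNA hairpin MIR6516 is shown because it is the one member whose own bases could be read and because SCARNA16 was called in the control arm. It lies on the plus strand at chr17:77089417-77089493 of GRCh38.p14 and covers the last 77 of the 187 bases of SCARNA16, with the ACA box, 3 bases before its end, in capitals.
SCARNA16: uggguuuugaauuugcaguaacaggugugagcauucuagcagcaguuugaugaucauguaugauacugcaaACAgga
The 2 mature microRNAs of the hairpin share this stretch, with their seeds (bases 2 to 8) in capitals. A probe set for SCARNA16 can therefore also read the hairpin's precursor.
hsa-miR-6516-5p: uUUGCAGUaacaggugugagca
hsa-miR-6516-3p: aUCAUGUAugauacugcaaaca

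Most snoRNAs are processed from the transcript of a gene that encloses them, while some scaRNAs have promoters of their own. All 117 lie inside another gene of the RefSeq table, 83 distinct genes in all, although that table gives no strand and the orientation of each pair was not checked. Host genes of snoRNAs often begin with a run of C and T at the transcription start (a terminal oligopyrimidine tract), a feature of messages for ribosomal proteins. The windows below run from 40 bases before the annotated start to 10 bases from it, on the gene's strand in GRCh38.p14. They are shown for hosts of members described below, with the run of C and T that holds the start base in capitals and the members measured from each host named after it.
RPL13A, chr19:49487568-49487617, plus strand: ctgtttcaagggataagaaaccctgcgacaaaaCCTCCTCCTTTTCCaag
RACK1, chr5:181243897-181243946, minus strand: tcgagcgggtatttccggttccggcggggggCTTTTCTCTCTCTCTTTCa
RPSA, chr3:39406680-39406729, plus strand: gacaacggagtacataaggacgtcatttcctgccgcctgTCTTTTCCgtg
RABGGTB, chr1:75786216-75786265, plus strand: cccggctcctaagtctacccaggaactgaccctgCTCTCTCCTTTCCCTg
SNHG1, chr11:62855876-62855925, minus strand: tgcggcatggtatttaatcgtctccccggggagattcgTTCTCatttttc
GAS5, chr1:173869036-173869085, minus strand: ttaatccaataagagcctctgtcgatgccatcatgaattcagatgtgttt
RPL13A holds SNORD32A, SNORD33, SNORD34 and SNORD35A, RACK1 holds SNORD95 and SNORD96A, and RPSA holds SNORA6 and SNORA62. RABGGTB holds SNORD45A and SNORD45B, SNHG1 holds SNORD28 and SNORD30, and GAS5 holds SNORD44, SNORD74, SNORD75, SNORD78 and SNORD79. A C at the start base followed by 4 bases that are each C or T, searched on the gene's own strand, was found in 24 of the 67 enclosing genes in the promoter table (35.8%) and in 4.07% of all 35116 starts listed. The start listed for SNHG1 lies in a run of 5 bases of C and T but lacks this pattern. Those listed for GAS5 and for CEP295, which encloses SCARNA9, lie in no such run, and starts not listed were not searched. RPL13A, RACK1, RPSA and RABGGTB have the pattern, and their members moved in both directions.

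In the control arm, snoRNAs and scaRNAs were mostly higher after IL1B, and most of all at 4 and 8 h. A probe set was called where the adjusted p of limma over all 14488 probe sets was under 0.05. At 4 h 47 members rose and 2 fell, where 17% of all probe sets rose and 20.9% fell. The median difference of the members was 0.48 on the log2 scale, a factor of 1.39, against -0.04 over all probe sets. At 8 h 35 rose and 1 fell (16.4% and 17.9% of all probe sets), with a median of 0.47. The calls were fewer on either side of these hours, with 8 up and 1 down at 2 h (10.3% and 9.77% of all probe sets, median 0.24) and 11 up and 4 down at 10 h (17.7% and 17% of all probe sets, median 0.18). Over the mean of the 4 hours 41 rose and 2 fell, where 18.1% and 21.2% of all probe sets did. In such bulk RNA, fewer cells with a given RNA and less of it per cell cannot be told apart.

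These counts all use the same control arrays at 0 h, in which the members were low. The mean over the 117 members was 6.87, 7.31, 7.15 and 7.06 in those arrays. It was 7.36 ± 0.16 (SD, n = 4) at 2 h, 7.57 ± 0.32 (n = 4) at 4 h, 7.59 ± 0.09 (n = 3) at 8 h and 7.25 ± 0.16 (n = 4) at 10 h. Replicate 1 at 0 h was the lowest of all 38 arrays, and without it the calls over the 4 hours dropped from 43 to 21, those at 4 h from 49 to 27 and those at 8 h from 36 to 15. The count at 4 h was also lower, at 22, without replicate 2 of 4 h, whose mean of 7.93 was the highest of all arrays. At 8 h it was 23 without replicate 1 and 19 without replicate 3 of that hour, while at 2 h it rose to 14 without replicate 2 of 0 h. The mean over 43 other small RNA probe sets, mainly microRNAs, also was lowest in that array (6.11, with the rest between 6.17 and 6.46). With that mean as a covariate, an alternative chosen after seeing the data, 21 members were called over the 4 hours and 23 at 4 h.

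**Figure D1:**
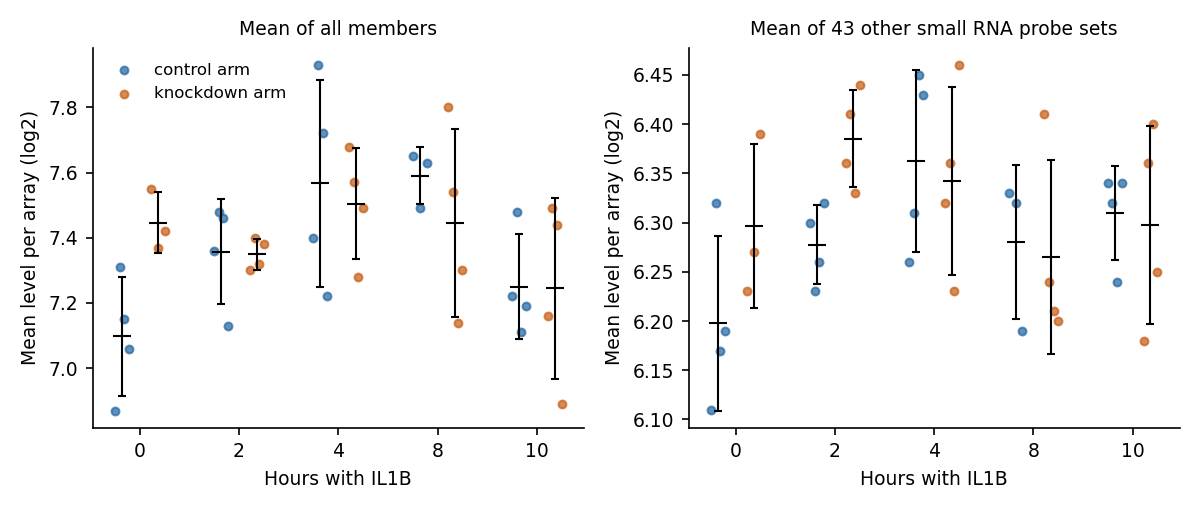
Mean log2 level per array over the 117 members (left) and over 43 other small RNA probe sets (right), by hours with IL1B. Points are arrays, horizontal marks are group means and bars are SDs (n = 3 or 4). The members were lowest at 0 h in the control arm, at 7.10 ± 0.18, against 7.45 ± 0.09 at 0 h in the knockdown arm.

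The knockdown arm had fewer calls, and their direction depended on the fit. Over the mean of the 4 hours 0 members rose and 9 fell by limma, where 12.1% and 19% of all probe sets did, and 11 had an unadjusted p under 0.05. The median difference was -0.01. At 2 h 1 member rose and 1 fell (9.57% and 13.8% of all probe sets), and at 4 h 2 rose and 2 fell (12.6% and 17.5%). At 8 h 0 rose and 6 fell (11.2% and 17.7%), and at 10 h 0 rose and 12 fell (11.6% and 13.8%). At an unadjusted p under 0.05 there were 10 members at 8 h and 19 at 10 h. With array weights 11 rose and 13 fell over the 4 hours, 11 rose and 8 fell at 4 h, 12 rose and 9 fell at 8 h, and 4 rose and 17 fell at 10 h. Without the weights the 3 members that rose were SNORA28 at 2 h and SNORA67 and SCARNA7 at 4 h. The members at 0 h were already at 7.45 ± 0.09 in this arm, and their means later lay between 7.24 and 7.50. Leaving out replicate 1 of 0 h took the calls over the 4 hours from 9 to 3, and leaving out replicate 2 took them to 4. Without replicate 4 of 0 h, 9 members were called at 4 h and 11 at 8 h.

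**Figure D2:**
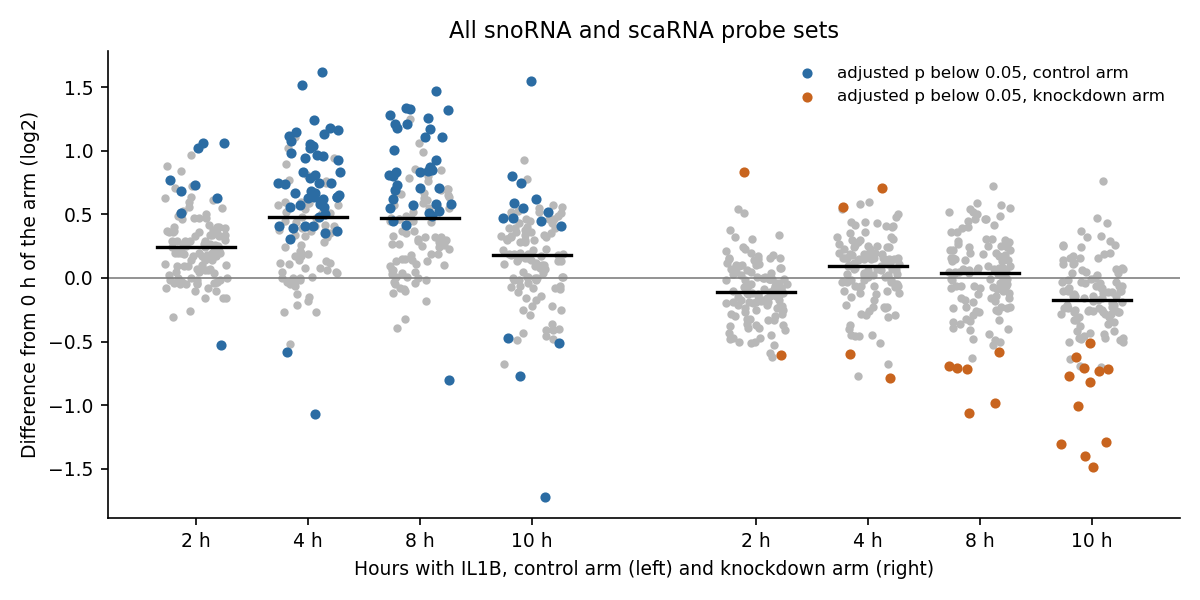
Difference from the 0 h arrays of the same arm for each of the 117 members, on the log2 scale, at each hour with IL1B. Coloured points passed an adjusted p of 0.05 in limma, grey points did not, and black lines are the medians. Medians in the control arm were 0.24, 0.48, 0.47 and 0.18, and those in the knockdown arm -0.11, 0.09, 0.04 and -0.17.

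The classes can be set side by side by their counts. At 4 h in the control arm 22 of 40 SNORA, 17 of 64 SNORD and 8 of 13 SCARNA probe sets rose (55%, 26.6% and 61.5%, against 17% of all probe sets), and the 2 that fell were SNORD34 and SNORD96A. Medians were 0.58, 0.39 and 0.54 in the same order. At 10 h 5 SNORA, 3 SNORD and 3 SCARNA probe sets rose (12.5%, 4.69% and 23.1%, against 17.7% of all), and 4 SNORD fell (6.25%, against 17% of all). In the knockdown arm every member that fell at any hour was a SNORD, 12 of 64 at 10 h (18.8%, where 13.8% of all probe sets fell) with a median of -0.27, while limma called 0 of 40 SNORA and 0 of 13 SCARNA probe sets at that hour, with 3 and 0 at an unadjusted p under 0.05. The difference between classes was not tested. SnoRNAs of the C/D class are also shorter, with a median length of 78.5 bases against 135.5 for H/ACA snoRNAs and 330 for scaRNAs in RefSeq, and the RNA was purified on silica columns, which keep short RNAs poorly. Over the 117 members, some of which share a host gene, length had a Pearson correlation of 0.12 with the control-arm difference over the 4 hours and of -0.21 with the SD within groups (Spearman 0.18 and -0.24), given as a description. The SD within groups had a Pearson correlation of 0.46 with that difference (Spearman 0.47), so members that varied more tended to rise more. The parts of length, spread and purification were not tested.

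The H/ACA snoRNAs called over the 4 hours in the control arm included SNORA6, SNORA74A, SNORA28 and SNORA31, each a guide for ribosomal RNA. Others were called too, among them SNORA7B, SNORA21 and SNORA62. SNORA6, from an intron of the ribosomal protein gene RPSA, was at 5.71, 5.71, 5.95 and 5.69 at 0 h. It was at 6.45, 6.56, 6.46 and 6.29 at 2 h, at 6.54, 6.34, 6.68 and 6.05 at 4 h, at 6.60, 6.15 and 6.41 at 8 h and at 6.53, 6.31, 6.30 and 6.40 at 10 h. Every later array was above every 0 h array. The difference over the 4 hours was 0.64 ± 0.12 (SE, adjusted p in limma 9.44e-05). With the knockdown SNORA6 was at 6.46, 5.83 and 5.94 at 0 h and between 5.66 and 6.67 later, so the groups overlapped.

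SNORA74A, known as U19, was at 5.35, 5.60, 5.57 and 5.97 at 0 h in the control arm and reached 6.46, 6.95, 6.60 and 6.65 at 4 h. All 4 arrays at 4 h were above the 0 h arrays, while 1 array at 10 h, at 5.63, lay among them. Its difference over the 4 hours was 0.63 ± 0.14 (adjusted p in limma 0.000482), and it fell from 4 h to 10 h by 0.52 in the control arm and by 0.59 in the knockdown arm. SNORA31, in an intron of TPT1, changed by 0.33 ± 0.08 (adjusted p in limma 0.00187). With an SD within groups of 0.15 it varied least of all members, and it was called at 4 h (0.37) and 10 h (0.47) in the control arm but at no hour in the knockdown arm. SNORA28, in an intron of the translation factor gene EIF5, was called at 2 h in both arms, by 1.02 ± 0.24 in the control arm and 0.83 ± 0.26 in the knockdown arm. Its call over the 4 hours in the control arm was lost with quantile normalization (0.43, adjusted p in limma 0.0665). That call was also lost with the other small RNAs as a covariate (0.46, 0.063).

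Of the scaRNAs, all 13 probe sets had a positive difference over the 4 hours in the control arm, and 8 were called, where 18.1% of all probe sets rose. Limma called 0 in the knockdown arm (12.1% of all probe sets rose and 19% fell), with 0 at an unadjusted p under 0.05. SCARNA9, a guide for the U2 spliceosomal RNA, was read by 2 probe sets with control-arm differences of 0.61 ± 0.14 (7943160) and 0.57 ± 0.16 (7943158). The first was at 6.37, 6.67, 6.41 and 6.25 at 0 h in the control arm and at 7.18, 7.28, 7.06 and 7.10 at 2 h. The 2 groups did not overlap, but 2 later arrays, 1 at 8 h at 6.57 and 1 at 10 h at 6.55, fell inside the 0 h range. This probe set in the knockdown arm was at 7.31, 6.99 and 7.34 at 0 h, above all 4 control arrays of that hour. SCARNA9L, a related copy that may share probes with SCARNA9, changed by 0.54 ± 0.18 and was not called without replicate 1 (adjusted p in limma 0.0584), 2 (0.0891) or 4 (0.052) of 0 h. Probe set 7943158 lost its call with quantile normalization (0.35, 0.0594).

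SCARNA17, a guide for the U12 and U4 RNAs, gave 0.35 ± 0.12 (8021181) and 0.26 ± 0.09 (8021183) over the 4 hours in the control arm. Without replicate 4 of 0 h neither probe set was called (0.25, adjusted p in limma 0.155, and 0.22, 0.0914). SCARNA16, a guide for the U1 RNA whose 3′ part is printed above, changed by 0.47 ± 0.14 (adjusted p in limma 0.00806). It was at 5.79, 6.52, 6.19 and 6.28 at 0 h and at 6.63, 7.32, 7.00 and 6.50 at 4 h, and the highest 0 h array lay just above the lowest of 4 h. The call was lost without replicate 1 of 0 h (0.33, adjusted p in limma 0.091) and with the other small RNAs as a covariate (0.30, 0.0939). SCARNA7 (0.59 ± 0.20) and SCARNA22 (0.34 ± 0.12) were called too. SCARNA7 lost the call without replicate 2 (0.50, adjusted p in limma 0.0928) or 3 (0.51, 0.089) of 0 h, and SCARNA22 without replicate 1 of 0 h (0.19, 0.233). SCARNA1, SCARNA5, SCARNA6, SCARNA10 and SCARNA12 were not called over the 4 hours, with differences of 0.41, 0.29, 0.44, 0.25 and 0.51. SCARNA1 was called at 4 h (0.83 ± 0.32), where 1 array was at 6.11 and the other 3 between 3.71 and 4.07.

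The C/D class held the largest changes in both directions. SNORD38A, a guide for the large ribosomal subunit, was at 4.51, 4.28, 4.54 and 4.62 at 0 h in the control arm. It was at 6.11, 5.49, 5.38 and 5.22 at 2 h, at 5.66, 5.39, 6.28 and 5.58 at 4 h, at 5.63, 5.41 and 5.75 at 8 h and at 5.44, 5.18, 5.20 and 5.35 at 10 h. All 15 later arrays were above all 4 at 0 h. The difference over the 4 hours was 1.05 ± 0.13, a factor of 2.07 (adjusted p in limma 2.23e-08). Every array of SNORD38A, in both arms, lay below the lower quartile of all values (6.64). With the knockdown it was at 5.56, 5.48 and 5.33 at 0 h and between 4.94 and 6.01 later, with a difference of 0.06 ± 0.14.

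SNORD113-4, an orphan snoRNA of the imprinted MEG8 cluster with no known target, was at 4.16, 4.93, 4.58 and 5.25 at 0 h in the control arm. Its values were 6.56, 6.35, 6.29 and 5.81 at 4 h and 5.90, 6.13, 6.30 and 6.79 at 10 h. The groups at these hours did not overlap with 0 h, while 1 array at 2 h, at 5.10, did. The difference over the 4 hours was 1.40 ± 0.24, a factor of 2.64 (adjusted p in limma 1.23e-05), and 0.30 ± 0.27 in the knockdown arm (0.427), where it was already at 6.28, 5.85 and 6.27 at 0 h. SNORD114-26 of the same cluster changed by 0.95 ± 0.30, a call lost without replicate 1 (adjusted p in limma 0.0817) or 4 (0.0689) of 0 h, and SNORD114-3 was not called. SNORD113 and SNORD114 copies resemble each other, so their probe sets may share signal.

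SNORD45B, from RABGGTB, had the second largest difference in the control arm (1.20 ± 0.37, adjusted p in limma 0.00874), but its arrays were far apart, at 4.36, 5.45, 6.20 and 4.36 at 0 h and 6.42, 7.41, 6.96 and 6.06 at 4 h. It was not called without replicate 1 (0.96, adjusted p in limma 0.0678) or 4 (0.96, 0.0663) of 0 h. SNORD42B, a guide for the small ribosomal subunit, was at 6.85, 7.40, 6.54 and 6.98 at 0 h and between 7.46 and 8.42 later, without overlap (0.84 ± 0.18). SNORD15A, from RPS3, was at 6.08, 6.32, 5.94 and 6.42 at 0 h and between 6.44 and 7.10 later (0.51 ± 0.13). The members called up at all 4 hours in the control arm were SNORD38A, SNORD113-4, SNORD42B, SNORA6 and the SCARNA9 probe set 7943160. The shares of all probe sets called up or called down at all 4 hours are not given here. In all, 6 members had later control arrays that did not overlap with 0 h, where 9.7% of all probe sets did, and 2 in the knockdown arm, where 8.62% did. The control-arm members were SNORD38A, SNORD15A, SNORA28, SNORD42B, SNORA6 and SNORD34, and the knockdown-arm members SNORD34 and SNORD50A.

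SNORD34 went the other way in both arms. This C/D snoRNA of RPL13A, a guide for the large ribosomal subunit, was at 9.49, 9.84, 10.06 and 9.76 at 0 h in the control arm. It was at 9.31, 9.46, 9.22 and 9.02 at 2 h, at 8.46, 8.64, 9.09 and 8.66 at 4 h, at 9.21, 8.90 and 8.86 at 8 h and at 8.29, 8.23, 7.76 and 7.99 at 10 h. In the knockdown arm it was at 9.81, 9.45 and 9.40 at 0 h and at 7.84, 8.51, 8.35 and 7.91 at 10 h, and in both arms every later array was below every 0 h array. At 10 h it had fallen by 1.72 ± 0.15 in the control arm, a factor of 3.29 (adjusted p in limma 6.54e-11), and by 1.40 ± 0.17 in the knockdown arm (5.68e-08). It was the one member called down at all 4 hours in the control arm, and it was called over the 4 hours in both arms under every alternative. The other members of the same host did not follow it. SNORD32A, SNORD33 and SNORD35A differed by 0.00 ± 0.14, 0.09 ± 0.20 and 0.17 ± 0.13 in the control arm and by -0.02 each in the knockdown arm.

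**Figure D3:**
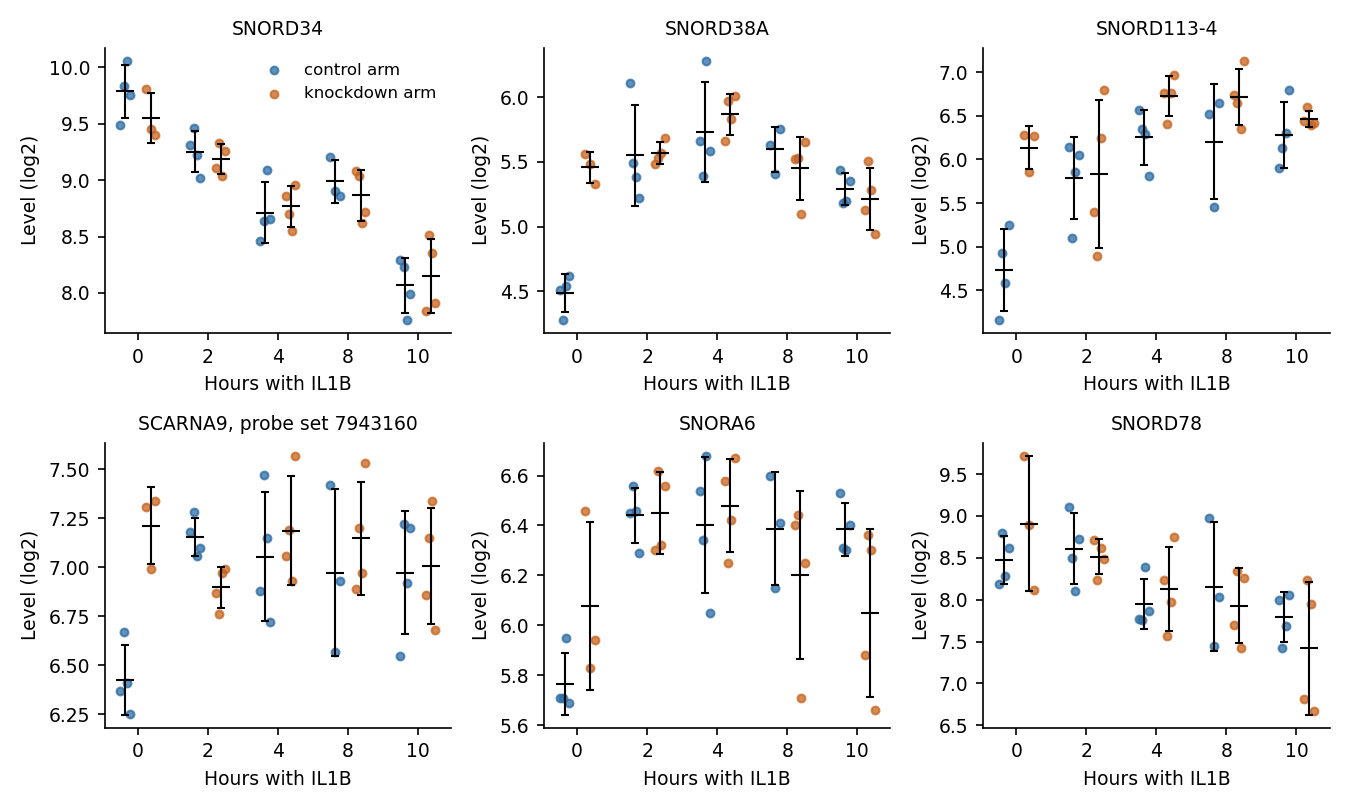
Levels (log2) of 6 members in every array by hours with IL1B, control arm in blue and knockdown arm in orange. Points are arrays, horizontal marks are group means and bars are SDs (n = 3 or 4). SNORD34 was lower at every later hour in both arms. SNORD38A, SNORD113-4 and SCARNA9 were lower at 0 h in the control arm than at 0 h in the knockdown arm.

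The members that fell in the knockdown arm came largely from GAS5, a noncoding host gene whose introns hold many C/D snoRNAs. All 5 measured GAS5 snoRNAs were called down over the 4 hours, with differences of -0.66 for SNORD44, -0.48 for SNORD74, -0.66 for SNORD75, -0.91 for SNORD78 and -0.83 for SNORD79. SNORD78 was at 9.72, 8.89 and 8.11 at 0 h in that arm and at 6.81, 8.24, 7.95 and 6.67 at 10 h. SNORD75 was at 7.85, 7.65 and 7.74 at 0 h and at 6.66, 7.42, 7.21 and 6.84 at 10 h, and it was called down at all 4 hours. At 0 h replicate 1 had the highest value of each of the 5, and without it SNORD78 (-0.50, adjusted p in limma 0.322), SNORD79 (-0.53, 0.188), SNORD74 (-0.37, 0.19) and SNORD44 (-0.30, 0.523) were no longer called. Without replicate 2 of 0 h SNORD78 (-0.91, adjusted p in limma 0.0639) and SNORD74 (-0.47, 0.0823) were not called. SNORD44 had an adjusted p in limma of 0.0499 and lost the call under 35 alternatives. In the control arm the 5 were not called over the 4 hours, with differences between -0.35 and 0.04, though SNORD74 fell by 0.51 at 10 h. The other falls over the 4 hours in the knockdown arm were SNORD28 of SNHG1 (-0.66 ± 0.16), SNORD4B of RPL23A (-0.51 ± 0.16), SNORD49A of SNHG29 (-0.42 ± 0.16) and SNORD34.

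SNORD28, a guide for the small ribosomal subunit, was at 9.50, 9.20 and 9.21 at 0 h in the knockdown arm and at 8.30, 8.70, 8.28 and 7.88 at 10 h. All arrays at 10 h were below those at 0 h (-1.01 ± 0.20, adjusted p in limma 0.000196), and in the control arm the difference at 10 h was -0.47 ± 0.18 (0.0438). SNORD96A of RACK1, a guide for the short rRNA of the large subunit, was at 7.57, 7.60, 8.10 and 7.65 at 0 h in the control arm and at 7.02, 6.94, 6.70 and 7.20 at 10 h. It fell by 0.77 ± 0.19 at that hour (0.00138) and by 0.73 ± 0.20 in the knockdown arm (0.00629).

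Members can also be read by the gene that encloses them. Both members of RPSA and both SCARNA9 probe sets of CEP295 rose over the 4 hours in the control arm. Of the 4 members of RPL23A, SNORD42B rose by 0.84 while SNORD42A, SNORD4A and SNORD4B were not called (0.08, 0.29 and -0.13). The 12 SNORD116 copies of SNHG14 had a median of 0.41, with 3 called up, but these copies are nearly identical and their probe sets cannot be counted as separate RNAs. Without them 38 of 105 members rose and 2 fell.

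**Figure D4:**
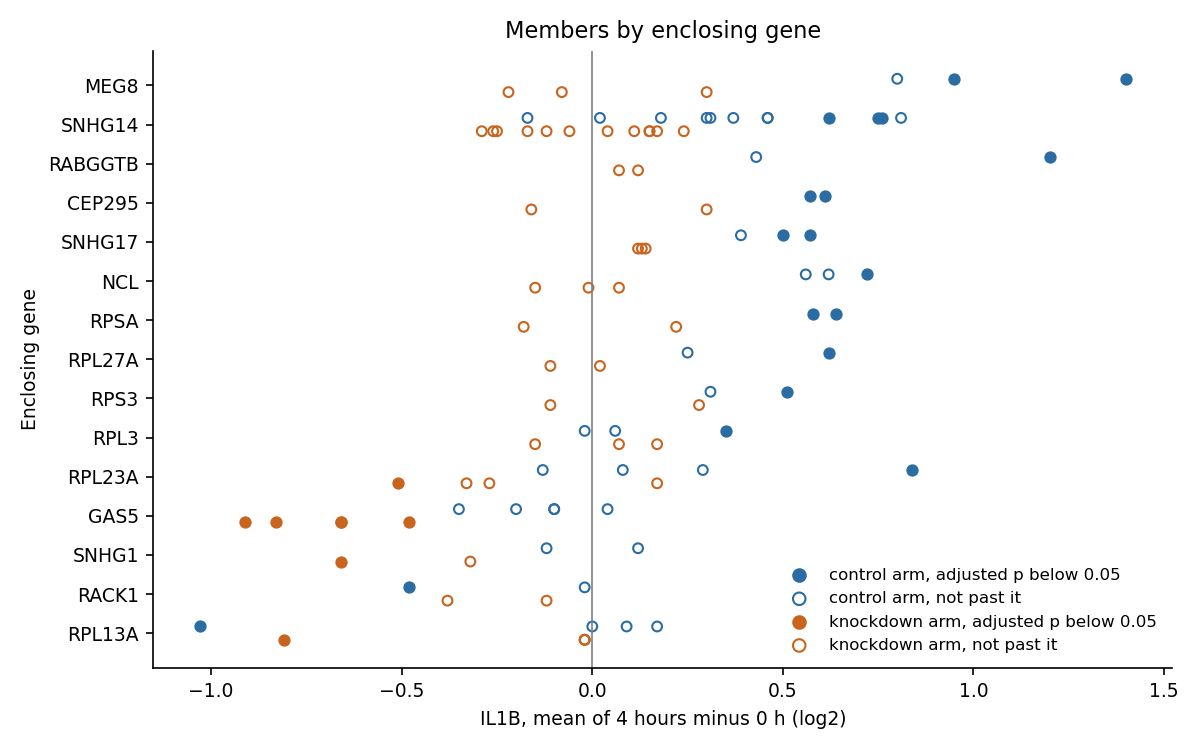
Difference over the 4 hours with IL1B from 0 h (log2) for the members of 15 enclosing genes. Each point is a member, blue for the control arm and orange for the knockdown arm, and filled points passed an adjusted p of 0.05 in limma. The 5 GAS5 members were between -0.91 and -0.48 in the knockdown arm, and SNORD34 stood apart from the other RPL13A members in both arms.

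For 56 members the enclosing gene was itself read by a probe set with 1 symbol, 42 host genes in all. Where several genes enclose a member, the measured one was taken, which need not be the gene it is processed from. SNORD21 was paired with DIPK1A but also lies in RPL5, and SCARNA16 with SEC14L1 but also lies in SNHG20. The RPL12 probe set paired with SNORA65 read only 4.6 to 6.3, below the lower quartile of all values. In the control arm over the 4 hours 7 of these hosts rose and 6 fell (18.1% and 21.2% of all probe sets), with a median of 0.00. Of the 23 members called up among the 56, the host rose for 5, fell for 2 and was not called for 16. SNORD45B rose by 1.20 and its host RABGGTB by 0.31 ± 0.07, SCARNA7 by 0.59 and its host KPNA4 by 0.39 ± 0.06, and SNORA3A by 0.62 and its host RPL27A by 0.37 ± 0.10. SNORA49 rose by 0.57 while EP400 fell by 0.30, and SNORD83A rose by 0.35 while RPL3 fell by 0.12. SNORD82 rose by 0.72 with NCL, the gene of nucleolin, at 0.00. Of the 42 hosts 2 rose and 5 fell in the knockdown arm (12.1% and 19% of all probe sets). The median SD within groups was 0.10 for hosts and 0.33 for these members, so a host change of a given size was easier to call. RPL13A, GAS5, SNHG14 and MEG8 had no probe set of their own with 1 symbol.

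**Figure D5:**
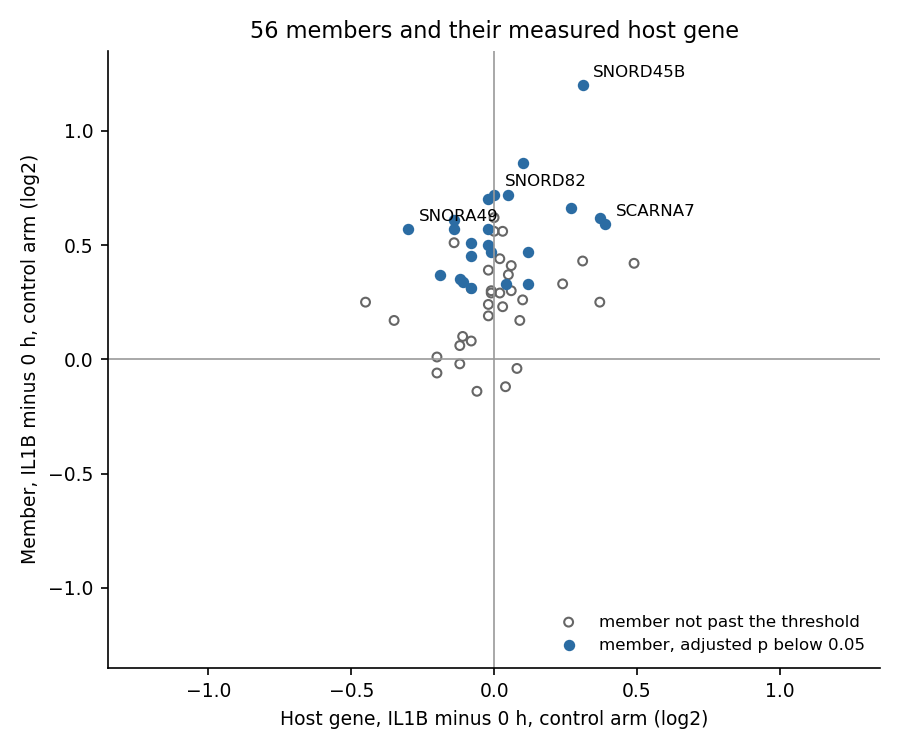
Difference over the 4 hours with IL1B from 0 h in the control arm (log2) for 56 members, against that of the gene that encloses each. Filled points are members with an adjusted p under 0.05 in limma. Hosts lay between -0.45 and 0.49, and 16 of the 23 filled points have a host that was not called.

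The genes for the proteins that build and use these RNAs are set against all probe sets, of which 18.1% rose and 21.2% fell over the 4 hours in the control arm and 12.1% and 19% in the knockdown arm. Of the box C/D core proteins 3 of 4 were measured, and 0 were called by limma in the control arm (1 at an unadjusted p under 0.05), while SNU13, which binds the box C/D motif (-0.45 ± 0.09), and NOP58 (-0.18 ± 0.06) fell in the knockdown arm. All 4 box H/ACA core proteins were measured and 0 were called by limma in either arm, with 1 and 0 at an unadjusted p under 0.05. Among 16 assembly and transport factors, 2 rose in the control arm, among them NAF1, an H/ACA assembly factor, by 0.18. There 1 fell, NCBP1 by 0.16, and in the knockdown arm 3 fell, among them RUVBL1 by 0.28. Of 11 Cajal body proteins, GEMIN6 (-0.20) and WRAP53 (-0.17), which carries scaRNAs to Cajal bodies, fell in the control arm, and in the knockdown arm limma called 0, with 0 at an unadjusted p under 0.05. Of 21 trimming and decay genes 4 rose and 3 fell in the control arm (19% and 14.3%), and 2 rose and 5 fell in the knockdown arm (9.52% and 23.8%). XRN1, a cytoplasmic exonuclease, rose by 0.38 in the control arm and by 0.19 in the knockdown arm, and PARN, which trims H/ACA RNAs, fell by 0.17 and 0.29.

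Of 29 measured genes of ribosomal RNA synthesis and processing 1 rose and 5 fell in the control arm, and the share that fell (17.2%) was below the 21.2% of all probe sets. In the knockdown arm 0 rose and 9 fell (31%, against 19% of all probe sets). UBTF, a factor of RNA polymerase I, fell by 0.36 in the control arm and by 0.33 in the knockdown arm, and MYC fell by 0.24 and 0.26. Of 30 measured protein-coding host genes of the fixed list, 3 rose and 1 fell in the control arm, and 1 rose and 2 fell in the knockdown arm. Of the 27 listed noncoding hosts only 4 were measured, and limma called 0 in either arm, with 1 and 0 at an unadjusted p under 0.05. The medians of these lists lay between -0.08 and 0.04 in the control arm and between -0.18 and -0.01 in the knockdown arm, where the medians over all probe sets were -0.02 and -0.04.

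The knockdown itself, set against the control arm at the same hour, was followed at 0 h by higher levels of 5 members and lower levels of 0, where 2.33% and 0.987% of all probe sets were called. SNORD113-4 was higher by 1.40 ± 0.32 (adjusted p in limma 0.00942), SNORD38A by 0.97 ± 0.17 (0.000628), SCARNA9 probe set 7943160 by 0.79 ± 0.19 (0.0134), SNORA4 by 0.66 ± 0.16 (0.0173) and SCARNA17 probe set 8021183 by 0.46 ± 0.12 (0.0242). In all, 109 of the 117 members were higher in the knockdown arm at 0 h, with a median of 0.34, against 0.01 over all probe sets. The count was 1 without knockdown replicate 4, 3 without knockdown replicate 1 and 3 without control replicate 3 of 0 h. At 2, 4, 8 and 10 h 0 members were called by limma (6.18%, 1.84%, 2.88% and 2.28% of all probe sets in either direction), with 6, 0, 1 and 2 members at an unadjusted p under 0.05. The medians at those hours were 0.00, -0.03, -0.14 and -0.01.

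Over the mean of the 5 hours 4 members were higher in the knockdown arm and 0 lower, where 10.9% and 12.1% of all probe sets were. They were SNORD113-4 (0.52 ± 0.14, adjusted p in limma 0.00545), SCARNA17 probe set 8021183 (0.21 ± 0.05, 0.00273), SNORA4 (0.23 ± 0.07, 0.0175) and SNORD15A (0.22 ± 0.08, 0.0323). SNORA4, an H/ACA snoRNA of EIF4A2, was at 6.42, 6.29 and 6.78 at 0 h in the knockdown arm and at 5.71, 6.01, 5.74 and 5.90 in the control arm, without overlap. At 4 h the arms overlapped, at 6.23, 5.91, 6.19 and 6.48 against 5.96, 6.59, 6.14 and 6.16. The count over the 5 hours was 7 without knockdown replicate 1 of 10 h. SNORD15A lost its call under 8 alternatives, among them leaving out knockdown replicate 4 of 0 h (0.20, adjusted p in limma 0.0634) and every array numbered 4 (0.17, 0.185). Without the arrays numbered 4, SNORA4 (0.15, 0.155) and SCARNA17 probe set 8021183 (0.16, 0.0637) were not called either, and SNORA4 was also lost without those numbered 3 (0.21, 0.0993).

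Whether the response to IL1B differed between the arms was tested as the difference of the differences. The joint F test in limma over the 4 hours called 0 of the 117 members, where it called 0.166% of all probe sets, and 7 members (5.98%) had an unadjusted p under 0.05, against 8.51% of all probe sets. With array weights, or without replicate 1 of 2 h or replicate 3 of 4 h of the control arm, it called 1. The smallest adjusted p was 0.0938, for SNORD38A. Over the mean of the 4 hours SNORD38A alone was called, with a response lower by 0.99 ± 0.19 in the knockdown arm (adjusted p in limma 0.00879, 0.235% of all probe sets called in either direction), and it was called at 8 h too (-1.12 ± 0.24, 0.0342; 0.228% of all). The call over the 4 hours was lost with quantile normalization (-0.76, adjusted p in limma 0.0959) and without knockdown replicate 1 (-0.94, 0.0853) or 2 (-0.98, 0.0581) of 0 h. It was also lost without all arrays numbered 1 (-0.86, 0.407), 2 (-1.01, 0.222) or 3 (-0.94, 0.0808). For 109 of the 117 members the difference of the differences was below 0, with a median of -0.37, and 13 of 13 SCARNA probe sets were among them. Their difference from 0 h was thus lower in the knockdown arm than in the control arm. The share of all probe sets below 0 is not given here. All of these differences share the 0 h arrays of both arms, so the members' signs are not independent of one another.

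A contrast that uses no 0 h array was added after seeing the data. From 4 h to 10 h 0 members rose and 7 fell in the control arm (16.2% and 13% of all probe sets), and 0 rose and 10 fell in the knockdown arm (12.5% and 11%). Medians were -0.29 and -0.24, with 110 and 102 of 117 members below 0, and the shares of all probe sets below 0 are not given here. By limma 16 and 21 members had an unadjusted p under 0.05. SNORD34 (-0.65 and -0.61), SNORD38A (-0.43 and -0.65) and SNORA74A (-0.52 and -0.59) were called in both arms. In the control arm the count ranged from 2 (without replicate 4 or 3 of 10 h) to 16 (without replicate 4 of 4 h), and was 3 without replicate 2 or 3 of 4 h. The knockdown-arm count was 4 without replicate 4 of 4 h, 5 without replicate 1 or 4 of 10 h, 17 without replicate 3 and 18 without replicate 2 of 10 h.

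The members varied more between replicate arrays than most probe sets, and they varied together. Their SD within groups had a median of 0.35 against 0.14 over all probe sets, and 117 of 117 were above that median. The shares of a member's variance that lay between groups had a median of 0.35, against 0.55 over all. SNORD114-3 (0.77), SNORD41 (0.76), SNORD58A (0.72) and SNORD45B (0.70) varied most. Of the members 51 had a mean under the lower quartile of all values (6.64), and of these 21 rose over the 4 hours in the control arm, against 20 of the 66 at or above it.

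Deviations from the group means were compared between members over the 38 arrays, as a description. The Pearson correlation had a median of 0.26 over the 6786 pairs of members, against 0.01 over all pairs of probe sets. It was 0.67 over the 118 pairs that share an enclosing gene and 0.25 over the other pairs. It was 0.61 within GAS5, 0.74 within RPL23A, 0.81 within SNHG17 and 0.50 within RPL13A, so SNORD34 and its neighbours shared array-to-array variation. With the mean of the other members 114 of 117 were above 0. SNORA31 was the lowest, at -0.27. The members' array mean had a correlation of 0.43 with that of the other small RNAs and of 0.06 with the array median, each over 38 arrays that share the hours and arms of the design. Its correlation was -0.31 with the interquartile range of relative log expression, a measure of array quality (-0.37 in deviations from group means). That range was 0.298, 0.291, 0.307 and 0.305 in the control arrays at 0 h and between 0.23 and 0.287 in later control arrays. Its part in the members' levels was not tested.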

How the data were processed

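RNA of 38 A549 samples was labelled from 1 µg of total RNA and read on Affymetrix arrays, per the labels' protocols. The authors deposited log2 expression values, 1 column an array, and the submitters' processing notes name RMA, Affymetrix Power Tools, limma 3.22.7 and hg19. RMA subtracts background, equalizes the arrays' distributions and summarizes probes, so a shift common to all probe sets cannot be seen. Arrays have no counts or depth, and their number limits the precision.

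The deposited values were used without further normalization or filter. Symbols came from the platform's probe annotation, updated through Entrez identifiers, and lengths, host genes and sequences from RefSeq (GRCh38.p14). Group means over the 10 groups were fitted with limma 3.58.1 in R 4.3.3 (28 residual degrees of freedom), and p-values were adjusted by Benjamini-Hochberg over 14488 probe sets. The contrasts were IL1B against 0 h in each arm, knockdown against control at each hour, their means, and the difference in response (also by a joint F test). Differences are log2 ± SE and levels log2. On simulated data for the control-arm mean contrast with all 14488 probe sets, 93 of 100 changes of 0.5 and 99 of 100 changes of 1 (log2) were recovered, with 9 false calls. The changed probe sets were drawn from all 14488, with independent noise at the SD of each. Members have larger SDs within groups (median 0.35 against 0.14) and vary together, so the share recovered among them was not measured.

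Named members were the largest and smallest differences of each contrast, the smallest joint p-values, the extremes of spread, every SCARNA and the host genes. SNORD42B, SNORA6, SNORD4B, SNORD49A, SNORD50A and others outside this rule were named after their values were seen. The members and gene lists were chosen with earlier results of these data known. Alternatives were another normalization, centring, variance prior, array weights, a filter on low values, 1 probe set a symbol, the replicate number as a block, only the groups compared, a small RNA covariate and left-out arrays.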

Additional observations from a re-analysis of the deposited data

Results flagged for a closer look

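Among 22 members described above, chosen after their values were seen, and the array mean of all members, each group of 4 arrays was searched for a highest or lowest array far from the other 3, which chance gives in about 1 in 20 groups. Of 184 groups 10 stood out. SCARNA1 was at 6.11 in 1 control array of 4 h, with the next at 4.07, at 4.73 in 1 knockdown array of 2 h (next 3.65) and at 4.87 in 1 knockdown array of 10 h (next 3.96). In the control arm SNORA6 was at 5.95 at 0 h (next 5.71), SNORD96A at 8.10 at 0 h (next 7.65), SCARNA16 at 6.82 at 2 h (next 6.34), SNORD78 at 8.39 at 4 h (next 7.86) and SNORD45B at 7.24 at 10 h (next 5.78). At 2 h in the knockdown arm SNORD44 was at 8.30 in 1 array (next 8.70) and SNORD75 at 7.50 (next 7.06).

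The response of SNORD38A to IL1B differed between the arms by the test of the difference itself in limma, by -0.99 over the 4 hours (adjusted p 0.00879, between 0.000372 and 0.407 over the alternatives) and by -1.12 at 8 h. At 0 h it was higher in 3 of 3 knockdown arrays than in all 4 control arrays.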

How the results depend on the processing

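Under 51 settings 0 of 36 named differences (ORMDL3 included) changed direction, and 11 passed the threshold under each setting that could give them a value, among them SNORD34 in both arms, SNORD38A, SNORD113-4, SNORA74A and SNORA31 in the control arm, and SNORD28 in the knockdown arm. The filter on level left out SNORD38A, SNORD113-4, SNORA74A and SNORA31, so each of these had a value under 50 settings. Counts of called members moved by over 1.5 times as follows, in the order of hours. The main fit did not pair the arrays by replicate number, although arrays of the same number were more alike in their deviations from group means. Of same-number pairs 107 of 162 correlated above 0.1 (median 0.18, lowest -0.29), against 104 of 487 pairs of different numbers (median -0.06). The main p-values and counts do not account for this likeness. With the number as a block 14 members were called at 2 h in the control arm, 4 at 2 h in the knockdown arm, 1 between the arms at 2 h and 11 from 4 h to 10 h in the control arm, and 29 of 38 arrays were closest to an array of their own number. With quantile normalization 7 and with array medians subtracted 8 were called at 4 h in the knockdown arm. With array weights, 19 were called at 2 h and 24 from 4 h to 10 h in the control arm. In the knockdown arm they gave 9, 19, 21 and 21 at the 4 hours, 24 over them and 5 from 4 h to 10 h. Between the arms they gave 10 at 0 h, 1 at 2 h and 1 in the joint test of the response. With only the groups compared in the fit, 18 and 61 were called at 2 h and 8 h in the control arm, 7 and 7 at 2 h and 4 h in the knockdown arm, and 3 and 2 between the arms at 0 h and 2 h. Without probe sets below the median level, which leaves 38 members, 2, 12, 13 and 4 were called at the 4 hours of the control arm and 10 over them. In the knockdown arm 1 was called at 2 h and 6 at 10 h, between the arms 1 at 0 h and 1 over 5 hours, and from 4 h to 10 h 3 and 4. With the mean of other small RNAs as a covariate, 23 were called at 4 h and 21 over the 4 hours in the control arm, 4 at 2 h and 6 from 4 h to 10 h in the knockdown arm. With single arrays or whole replicate numbers left out, control-arm counts ranged from 6 to 14 at 2 h, 22 to 57 at 4 h, 9 to 42 at 8 h, 9 to 17 at 10 h and 18 to 50 over the 4 hours. Knockdown-arm counts in the same order ranged from 0 to 4, 1 to 10, 2 to 11, 3 to 17 and 2 to 12. Those between the arms ranged from 1 to 5 at 0 h, 0 to 1 at 2 h and 2 to 7 over 5 hours. From 4 h to 10 h they ranged from 0 to 16 in the control arm and 2 to 20 in the knockdown arm, and in the joint test from 0 to 1. The cause was not tested, except that fewer members are left by the filter on level and fewer arrays when some are left out. No other count moved by over 1.5 times. Of the 117 members 79 lie below the median of all values, and the part of signal level in these counts was not tested.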

Other observations

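The 38 probe sets with several symbols, of which 1 is a snoRNA or scaRNA, were left out of the counts above. In the control arm over the 4 hours 12 of them rose and 2 fell, with a median of 0.21 (log2), and in the knockdown arm 1 rose and 4 fell, with a median of 0.02. The 43 probe sets of other small RNAs gave 4 up and 0 down in the control arm and 1 up and 2 down in the knockdown arm. Over all probe sets 18.1% rose and 21.2% fell in the control arm, and 12.1% rose and 19% fell in the knockdown arm.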
